A study of Mus musculus with 3 samples.

Results

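The genes described here are 10 transcription factor genes of the immediate early response, chosen by name: the AP-1 genes Fos, Fosb, Fosl2, Jun, Junb, Jund and Atf3 and the Egr genes Egr1, Egr2 and Egr3. All 10 were found by Entrez number among the 27179 genes counted. RNA sequencing was done on mouse C57BL/6 bone marrow pro-B cells, the precursors in which the immunoglobulin heavy chain is being rearranged. One group held 2 independently prepared male Pax5-/- samples, and the other held 1 female wild-type sample. B220+ cells of both genotypes were grown on OP9 stroma. The labels state removal of IgM+ cells with magnetic beads at day 7 for the Pax5-/- samples, while the text given for the wild type names neither step. Genotype, sex and this handling therefore cannot be told apart in any difference below. The labels do not say whether an animal was pooled with others, or which part of Pax5 is deleted.

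Immediate early genes are switched on within minutes of a stimulus without new protein synthesis, mostly through the Ras-MAPK kinases acting on the factor SRF and its Elk partners. Jun proteins bind DNA as dimers, with themselves or with Fos, Atf or Batf proteins, at AP-1 sites and at the related cyclic AMP response element. Egr proteins are zinc finger factors that bind a GC-rich site and are restrained by the corepressors Nab1 and Nab2. In lymphoid precursors, antigen receptor and cytokine signals induce them, and Egr1 has been linked to early B-cell differentiation.

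These proteins bind short patterns of letters in DNA, so promoter stretches are shown for the genes to which the values return below. The sequences come from RefSeq (GRCm38.p6, the assembly that mm10 names) and cover the 250 bases before the gene start, written 5′ to 3′ on the gene's strand. Windows were matched for 8 of the 10 members. Egr1 and Egr3 had none, so the matches below do not cover them. Capitals mark matches on either strand to TGANTCA (the AP-1 site), TGANNTCA (the cyclic AMP response element and its variants), GCGNGGGCG (the Egr site) or the CArG box (the SRF site). Jun and Jund are shown as the Jun genes whose windows held a match (Junb held none), and Fosl2 as the member that stood higher in Pax5-/-. Zfp36 and Plaur are shown as examples of listed pathway genes that fell and rose. They were not picked by a rule and do not stand for the other genes of their lists.
Jun (chr4:95052223-95052472, minus strand): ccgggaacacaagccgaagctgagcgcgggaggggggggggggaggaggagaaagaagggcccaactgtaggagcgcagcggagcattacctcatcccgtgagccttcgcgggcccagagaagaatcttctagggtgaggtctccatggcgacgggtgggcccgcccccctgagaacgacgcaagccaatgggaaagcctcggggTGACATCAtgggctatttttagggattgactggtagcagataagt
Jund (chr8:70697489-70697738, plus strand): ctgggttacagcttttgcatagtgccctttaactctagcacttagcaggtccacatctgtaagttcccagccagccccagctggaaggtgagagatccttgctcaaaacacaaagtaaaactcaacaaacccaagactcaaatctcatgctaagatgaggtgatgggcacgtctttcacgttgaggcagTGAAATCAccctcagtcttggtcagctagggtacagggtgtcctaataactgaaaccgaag
Fosl2 (chr5:32136222-32136471, plus strand): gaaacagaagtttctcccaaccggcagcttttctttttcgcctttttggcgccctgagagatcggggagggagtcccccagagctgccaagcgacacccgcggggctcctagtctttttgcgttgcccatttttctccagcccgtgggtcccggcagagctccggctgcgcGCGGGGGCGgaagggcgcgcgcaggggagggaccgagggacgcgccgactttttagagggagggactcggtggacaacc
Zfp36 (chr7:28379229-28379478, minus strand): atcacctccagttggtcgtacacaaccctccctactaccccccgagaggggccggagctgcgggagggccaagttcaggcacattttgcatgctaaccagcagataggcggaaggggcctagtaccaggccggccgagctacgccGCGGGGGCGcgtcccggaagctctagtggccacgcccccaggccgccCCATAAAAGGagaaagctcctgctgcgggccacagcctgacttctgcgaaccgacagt
Plaur (chr7:24462233-24462482, plus strand): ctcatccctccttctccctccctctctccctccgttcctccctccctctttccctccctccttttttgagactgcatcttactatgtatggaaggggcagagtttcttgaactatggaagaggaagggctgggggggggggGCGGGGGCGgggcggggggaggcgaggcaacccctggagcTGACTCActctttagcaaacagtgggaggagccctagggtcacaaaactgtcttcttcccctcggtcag

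The Jun window held TGACATCA 45 bases before the start, and the Jund window held TGAAATCA 61 bases before it. TGANNTCA was present in 11.9% of 32851 RefSeq windows of this length. The Fosl2 window held the Egr letters 79 bases before the start, as 4.7% of windows did. Zfp36 had an Egr match 105 and a CArG box 58 bases before its start, the latter found in 1.47% of windows. Plaur had an Egr match at 109 and an AP-1 match, TGACTCA, at 69 bases. TGANTCA was present in 6.75% of windows. Zfp36 belongs to a list of feedback genes below, where 12 genes had a window, 2 held GCGNGGGCG and 2 held a CArG box. Plaur belongs to a list of commonly cited targets, where 6 genes had a window, 1 held TGANTCA and 2 held GCGNGGGCG. Among the 8 matched members 0 held TGANTCA, 2 held TGANNTCA, 2 held GCGNGGGCG and 1 held a CArG box. These are matches of letters only.

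The libraries held 6487846 and 6697879 counts for Pax5-/- and 6530057 for wild type. At this depth 1 count is 0.154, 0.147 and 0.156 CPM, and a count of 0 allows up to 3 counts, or 0.462, 0.440 and 0.467 CPM. CPM are counts relative to the scaled library total (TMM-scaled counts-per-million), and such limits cover counting error only. Pax5 itself was counted 417 and 551 times in the Pax5-/- samples and 1601 times in wild type, and gene-level counts may include exons outside the deletion. All 8 pro-B markers examined, among them Cd79a, Igll1, Rag1 and Dntt, were counted in every sample. Of the 8, 4 fell (Cd79a, Cd79b, Ebf1 and Vpreb1), 3 rose (Il7r, Rag1 and Dntt) and 1 was not called, and their sum was 2747 and 3123 CPM in Pax5-/- against 4856 CPM in wild type. The labels describe separate preparations for the Pax5-/- samples alone, so p-values rest on the spread between those 2 and assume it for the lone wild type. Each gene's spread was also moderated toward that of all genes, with 1 residual and 3.15 prior degrees of freedom.

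Egr1 fell in Pax5-/-, and it was the sole member called different. Of the 10 genes, 7 passed the filter on low counts, 1 was called lower, 0 were called higher and 6 were not called (edgeR quasi-likelihood test at a threshold of 0.05 on p, adjusted over all genes by Benjamini-Hochberg). Over the 11783 genes tested, 18.1% were called, 9.53% higher and 8.55% lower, so the members' 1 of 7 (14.3%) is near the background. At an unadjusted p under 0.05 the same test gave 5 of the 7, beside 36.0% of all genes tested. The median log2 fold change of the 7, Pax5-/- over wild type, was -0.78, beside 0.0074 over all genes tested. Both Pax5-/- samples lay below the wild type in 6 of the 7 tested members and above it in 1. Fos (9, 3 and 10 counts, wild type last) and Atf3 (4, 1 and 14) reached the filter's minimum count of 10 in the wild type alone. The filter thus fixed their place below the wild type, which is no support for a lower level. Both enter the median above, and Atf3 is among the 5 genes above. With a mean count of at least 20 required, 5 members were tested, without Fos and Atf3. Over all genes tested 42.9% lay below in both and 42.3% above in both. The plot of CPM by sample shows the wide range of levels, with Jund highest and Egr2 and Fosb near 1 count.

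**Figure D1:**
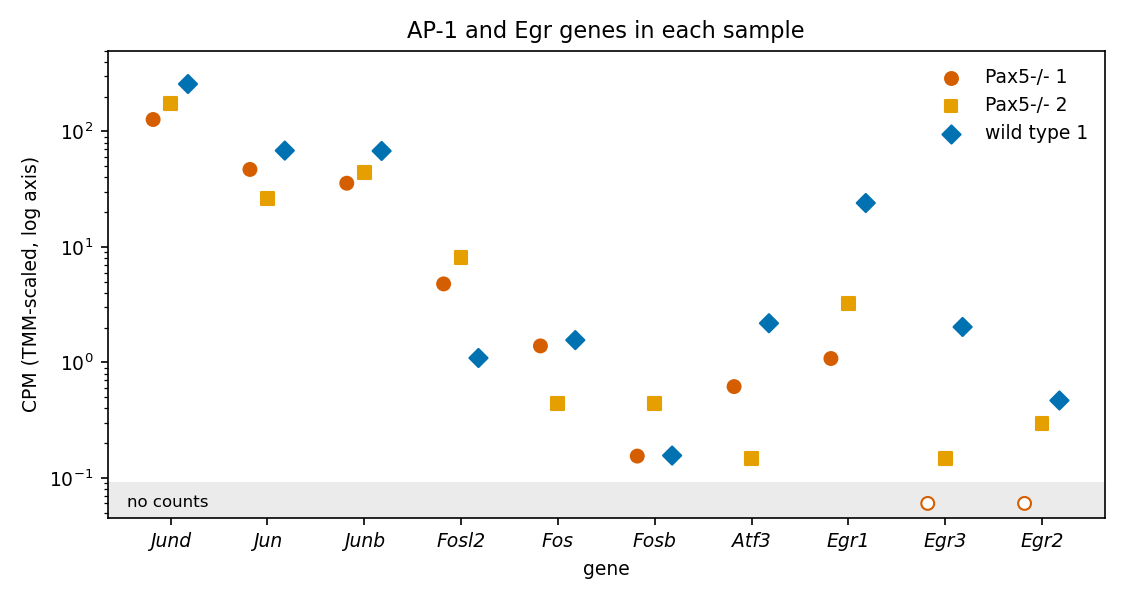
CPM of each member (log axis) in each of the 3 samples, with open symbols in the grey band for samples with no counts. Egr1 is at 1.08 and 3.23 CPM in Pax5-/- against 24.0 in wild type, whereas Fosl2 is at 4.78 and 8.07 against 1.09 CPM.

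Among the Egr genes, Egr1 (Entrez 13653) was counted 7 and 22 times in Pax5-/- samples 1 and 2, compared with 154 times in wild type. These are 1.08 and 3.23 CPM, or 2.15 ± 1.52 CPM (SD, n = 2), against 24.0 CPM. The wild type was high, and both Pax5-/- samples were low, 22.2-fold and 7.43-fold below it. The log2 fold change was -3.46 (SE 0.53, adjusted p = 0.0248, edgeR quasi-likelihood test). Under the 9 other settings tried, the adjusted p ranged from 6.14e-08 to 0.0348. The Pax5-/- samples also differed from each other, by a ratio of 2.99 for sample 2 over sample 1 (exact 95% counting interval 1.23 to 8.29).

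Egr3 (Entrez 13655; mm10, chromosome 14, 70077317 to 70082613), a close relative of Egr1 that acts in lymphocyte activation, was counted 0 and 1 times in Pax5-/- and 13 times in wild type. Its 14 counts in all were below the 15 required for testing. The wild type exceeded the pooled Pax5-/- samples by a ratio of 26.9, with an exact Clopper-Pearson 95% counting interval of 4.05 to 1145. Without the filter on low counts its adjusted p was 0.0598 (edgeR). Egr2 (Entrez 13654; chromosome 10, 67534469 to 67542188), known for its role in myelination and in lymphocyte tolerance, had 0, 2 and 3 counts, too few for a fold. The Egr2 span overlaps the noncoding gene Gm32255, and the strand setting of the counting is not given in the sources used here.

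The Jun genes were the abundant members, and all were lower in both Pax5-/- samples without passing the test. Jund (Entrez 16478; chromosome 8, 70697739 to 70700616), a Jun protein present in resting cells, was counted 823 and 1183 times in the Pax5-/- samples, in their order, and 1653 times in wild type. The same order of samples is used below. Its CPM of 127, 174 and 258 gave -0.78 as the log2 fold change (SE 0.22; edgeR adjusted p = 0.0881). Jund was called in 1 of 9 other settings, with DESeq2 (adjusted p = 0.0296). The window shown above with TGAAATCA belongs to this gene.

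Junb (Entrez 16477; chromosome 8, 84976909 to 84978748), an inducible Jun protein with weaker activity than c-Jun on many promoters, had 231, 300 and 435 counts. The wild type was high at 67.8 CPM, and the Pax5-/- samples were close together at 35.6 and 44.0 CPM. The log2 fold change was -0.77 (SE 0.19, adjusted p = 0.0628, edgeR). Junb passed the threshold in 2 of 9 other settings, with RLE scaling (adjusted p = 0.0410) and with robust dispersion estimation (adjusted p = 0.0442).

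Jun (Entrez 16476; chromosome 4, 95049036 to 95052222), which encodes c-Jun, had 304, 179 and 438 counts. Here Pax5-/- sample 1, at 46.9 CPM, lay nearer to the wild type at 68.2 CPM than sample 2 did, at 26.3 CPM. The order of the Pax5-/- samples was opposite to that of Jund and Junb. Sample 1 exceeded sample 2 by a ratio of 1.78 for Jun (95% counting interval 1.48 to 2.16), while sample 2 exceeded sample 1 by 1.37 for Jund (1.25 to 1.497) and 1.24 for Junb (1.04 to 1.47). The log2 fold change of Jun was -0.90 (SE 0.36, adjusted p = 0.166, edgeR), and 0 of 9 other settings called it. For all 3 Jun genes the deposited gene length equals the genomic span, at 3187, 1840 and 2878 bases for Jun, Junb and Jund, so the counted models have no intron. None of the other 7 members had this property.

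In the Fos family no gene was called. Fosl2 (Entrez 14284; chromosome 5, 32136472 to 32157840), which encodes the Fos protein Fra-2, was counted 31 and 55 times in Pax5-/- and 7 times in wild type. At 4.78 and 8.07 CPM against 1.09 CPM, both Pax5-/- samples were high, 4.38-fold and 7.40-fold above the wild type. The log2 fold change was 2.54 (SE 0.62, adjusted p = 0.0632, edgeR), just short of the threshold. It passed in 4 of 9 other settings. These were RLE scaling (adjusted p = 0.0423), robust dispersion (0.0393), no filter on low counts (0.0426) and the likelihood ratio test (0.00165).

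Fos (Entrez 14281; chromosome 12, 85473890 to 85477274), which encodes c-Fos, was close to the limit of detection with 9, 3 and 10 counts. Its 1.39 and 0.440 CPM in Pax5-/- lay below 1.56 CPM in wild type. The log2 fold change was -0.77 (SE 0.87, adjusted p = 0.569, edgeR). A difference was not detectable at this depth. Fosb (Entrez 14282; chromosome 7, 19302696 to 19310118), another inducible Fos gene, had 1, 3 and 1 counts and was not tested. Its pooled ratio of Pax5-/- over wild type was 1.93 (exact 95% counting interval 0.191 to 95.05).

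Atf3 (Entrez 11910; chromosome 1, 191170296 to 191183333), a stress-induced factor that often represses its targets, had 4, 1 and 14 counts. The wild type was high at 2.18 CPM and the Pax5-/- samples were low at 0.617 and 0.147 CPM. The log2 fold change was -2.47 (SE 0.88, adjusted p = 0.132, edgeR), and the call was made in the likelihood ratio test alone (adjusted p = 0.0156). Among the 7 tested members Egr1 and Atf3 had the lowest fold changes and Fosl2 alone had one above 0, as the plot of fold changes shows.

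**Figure D2:**
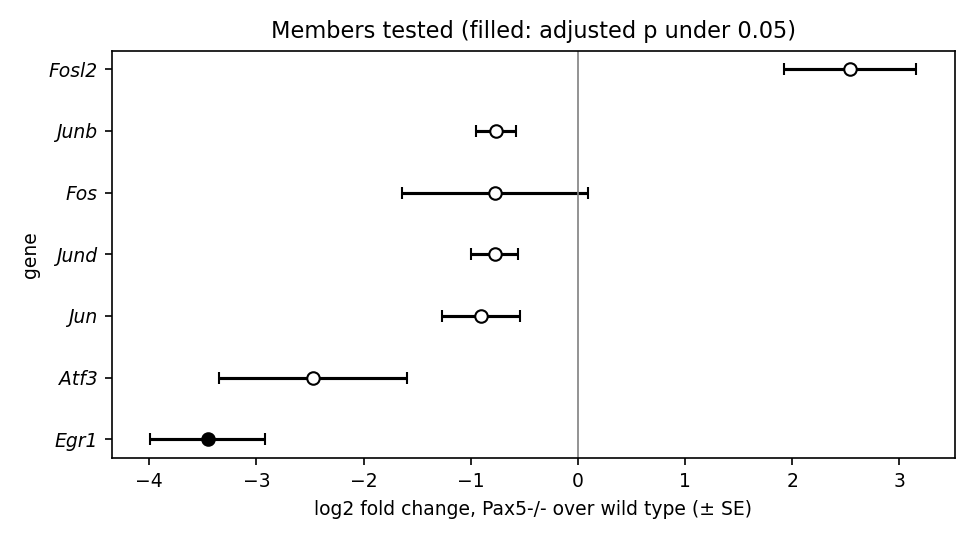
Log2 fold change, Pax5-/- over wild type, with its SE for the 7 members tested, where the filled point passed an adjusted p of 0.05 and open points did not. Egr1 at -3.46 is the filled point, Jun, Junb, Jund and Fos lie between -0.90 and -0.77, and Fosl2 lies at 2.54.

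Divided by gene length, levels can be set side by side between genes. In the wild type Jund led with 89.5 CPM per kilobase, followed by Junb at 36.8, Jun at 21.4 and Egr1 at 7.81 CPM per kilobase. Egr3 (1.43), Atf3 (1.10) and Fos (0.744) came next, and Fosl2 (0.186), Egr2 (0.158) and Fosb (0.0413) were lowest. In Pax5-/- the Jun genes kept the first places at 52.2 ± 11.5, 21.6 ± 3.23 and 11.5 ± 4.57 CPM per kilobase (SD, n = 2) for Jund, Junb and Jun, without overlap between neighbours. Fosl2 came next at 1.10 ± 0.397, then Egr1 at 0.701 ± 0.495 CPM per kilobase, with overlapping samples. From Egr1 downward each neighbour pair in this order, through Fos (0.437 ± 0.320), Atf3 (0.193 ± 0.168) and Fosb (0.0787 ± 0.0536), also overlapped.

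The share of each gene in its family was taken on this per-length scale. Jund made up 56.4% and 65.2% of the summed Jun family level in Pax5-/- and 60.6% in the wild type, so the wild-type share lay between the Pax5-/- shares. The summed Jun level itself was 78.1 and 92.5 against 148 CPM per kilobase. Fosl2 made up 53.7% and 80.8% of the Fos family sum in Pax5-/- and 19.1% in the wild type, where Fos held 76.6%. Fos family sums stayed small, at 1.52 and 1.70 against 0.972 CPM per kilobase. The Egr family sum was 0.351 and 1.25 against 9.40 CPM per kilobase, with Egr1 holding 100% and 83.8% of it in Pax5-/- and 83.1% in the wild type. These shares have no test of their own, and those of the Fos and Egr families rest on few counts.

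**Figure D3:**
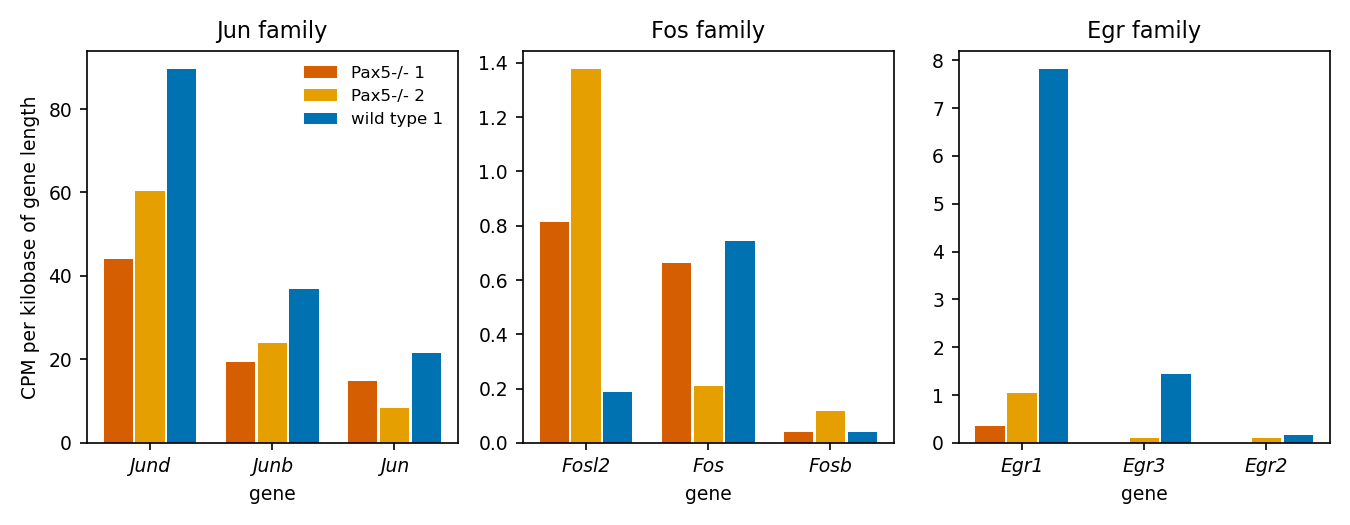
Bars give CPM per kilobase of deposited gene length for Jun, Fos and Egr family genes in both Pax5-/- samples and in wild type, with a separate axis from 0 for each family. Jund stands highest in all 3 samples at 44.1, 60.3 and 89.5, Fosl2 exceeds Fos in both Pax5-/- samples but not in the wild type, and Egr1 is tallest in the wild type at 7.81.

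Other partners of Jun were compared from a list of 12 further AP-1 and CREB/ATF genes, of which 9 were tested, 1 rose, 1 fell and 7 were not called. The share called was 22.2% of those tested, beside 18.1% of all genes tested, and the median log2 fold change was -0.12. Atf4, the factor of the integrated stress response, fell from 246 CPM in wild type to 72.5 and 79.4 CPM (log2FC, the log2 fold change, of -1.70; SE 0.14, adjusted p = 0.00692, edgeR). From here on the level in Pax5-/- is given as mean ± SD of the pair (n = 2). Crem, a cyclic AMP responsive factor, rose from 15.3 to 49.4 ± 7.47 CPM (log2FC 1.69, SE 0.22, adjusted p = 0.0166, edgeR). Batf, a small partner of Jun in lymphocytes, chosen after its values were seen, had 105, 78 and 96 counts. Its per-length level of 17.9, 12.7 and 16.5 CPM per kilobase was above that of every Fos gene in each sample.

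Of the 4 Egr relatives and corepressors, 2 were tested, 1 fell and 1 was not called. The share called was 50% of only 2 genes, beside 18.1% of all genes tested, with a median log2 fold change of -1.66. Nab2, a corepressor whose own gene is known to be induced by Egr proteins, was counted 3 and 4 times in Pax5-/- and 29 times in wild type. It stood at 0.525 ± 0.0880 CPM against 4.52 CPM, a log2FC of -3.06 (SE 0.55, adjusted p = 0.0339, edgeR), and the call was lost with DESeq2 (adjusted p = 0.157). Nab2 overlaps Stat6 in the annotation, so its counts are uncertain. Nab1 was not called, with 99.0 and 80.7 CPM against 108 CPM. Egr4 had 0, 1 and 0 counts, and Wt1 had none in any sample.

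Upstream of the members, kinase pathway genes were called at a share near the background. Of 22 Ras-MAPK genes, all tested, 2 rose, 1 fell and 19 were not called (13.6% called, beside 18.1% of all genes tested), with a median log2 fold change of 0.0061. Rps6ka1, which encodes the ERK-activated kinase RSK1, rose from 65.6 to 315 ± 23.3 CPM (log2FC 2.26, SE 0.15, adjusted p = 0.00477, edgeR). Rps6ka5, the kinase MSK1 that phosphorylates CREB, rose from 23.4 to 70.4 ± 8.49 CPM (log2FC 1.59). Mapk9, the kinase JNK2 that phosphorylates c-Jun, fell by 0.72 on the log2 scale. Its adjusted p of 0.0403 (edgeR) was lost with library size alone, DESeq2, the likelihood ratio test and the assumed variation of 0.4.

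Of 6 genes of SRF and its partners, all tested, 1 rose, 1 fell and 4 were not called. The share called was 33.3%, beside 18.1% of all genes tested, with a median of -0.068. Elk3, which encodes an SRF partner also known as Net, rose from 42.8 to 241 ± 5.67 CPM (log2FC 2.49, SE 0.15, adjusted p = 0.00413, edgeR). Elk4 fell by 0.76 on the log2 scale (adjusted p = 0.0467, edgeR), a call lost with library size alone, DESeq2, limma-voom and the assumed variation of 0.4. Srf itself stood at 78.0, 81.3 and 80.1 CPM.

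Feedback inhibitors of the pathway, phosphatases, Ras inhibitors and mRNA decay factors, held calls in both directions. Of 15 such genes, 14 were tested, 3 fell, 1 rose and 10 were not called. The share called was 28.6% of those tested, beside 18.1% of all genes tested, with a median log2 fold change of -0.24. Dusp7, a phosphatase of ERK, fell from 76.7 to 8.17 ± 1.10 CPM (log2FC -3.22, SE 0.18, adjusted p = 0.00402, edgeR). Zfp36, which encodes tristetraprolin and whose promoter is shown above, fell from 151 to 55.5 ± 1.73 CPM (log2FC -1.44). Spry2, an inhibitor of Ras signalling, fell by 1.60 on the log2 scale, a call lost with library size alone, DESeq2 and the assumed variation of 0.4. Zfp36l2, a relative of Zfp36, rose by 0.79 (adjusted p = 0.0293, edgeR). It was no longer called with the likelihood ratio test or the assumed variation.

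Among other immediate early genes most calls were lower. Of 34 listed, 30 were tested, 9 fell (30.0% of those tested, beside 8.55% of all genes tested), 1 rose and 20 were not called, with a median log2 fold change of -0.19. Klf2, a quiescence factor of lymphocytes, fell from 89.4 to 4.74 ± 0.485 CPM (log2FC -4.23, SE 0.17, adjusted p = 0.00284, edgeR). Btg1, an antiproliferative gene, fell from 433 to 40.3 ± 5.98 CPM (log2FC -3.43), and Trib1, a scaffold that promotes C/EBP alpha breakdown, fell from 19.9 to 2.48 ± 0.232 CPM (log2FC -3.00). Klf4 moved the other way, from 3.58 to 25.9 ± 0.802 CPM (log2FC 2.85, SE 0.24). Several classical immediate early genes, chosen here after their values were seen because the samples lay close together, were not called. Ier2 stood at 46.9, 45.5 and 45.6 CPM in the same order of samples and Myc at 306, 349 and 322 CPM. Dusp1, which was counted in the list of feedback genes above and not in this one, stood at 4.16, 4.25 and 4.36 CPM.

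Commonly cited targets of AP-1 and Egr factors were counted last. Of 8, 6 were tested, 3 fell, 1 rose and 2 were not called, with a median log2 fold change of -0.29. The share called was 66.7% of those tested, beside 18.1% of all genes tested, but the list is small and was chosen with earlier results known. Id3, an inhibitor of E proteins induced through Egr1 in lymphoid precursors, fell from 78.7 to 4.73 ± 0.579 CPM (log2FC -4.05, SE 0.18, adjusted p = 0.00297, edgeR). Cd44, a hyaluronan receptor, fell from 155 to 17.3 ± 2.41 CPM (log2FC -3.17), and Tgfb1 fell by 1.21 on the log2 scale. Plaur, the urokinase receptor whose promoter is shown above, rose from 0.623 to 11.8 ± 0.970 CPM (log2FC 4.20, SE 0.44, adjusted p = 0.0106, edgeR).

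**Figure D4:**
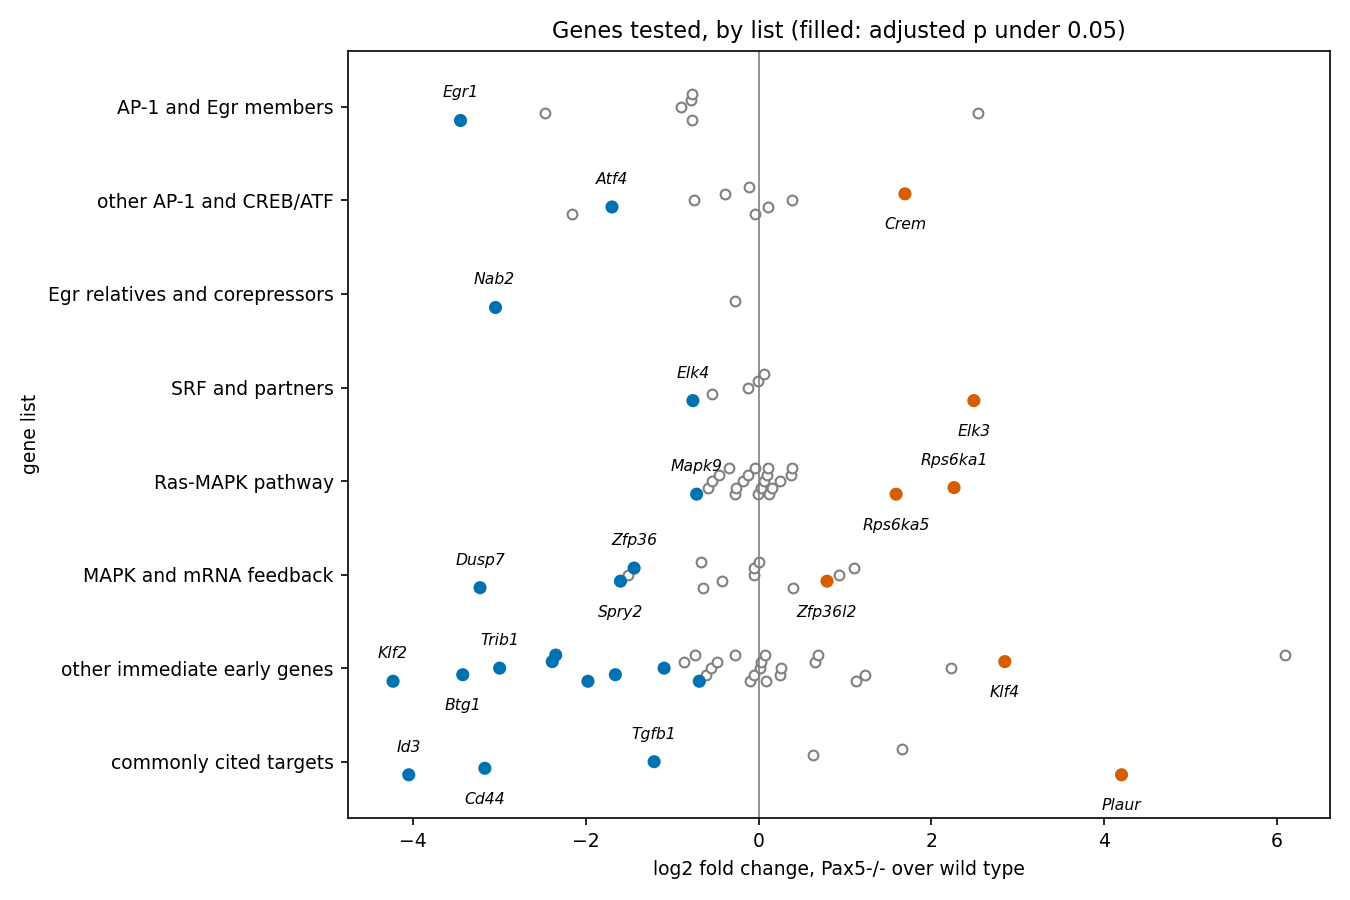
Each point is a tested gene of a list, placed by its log2 fold change, Pax5-/- over wild type, and filled where the adjusted p is under 0.05 (orange for higher, blue for lower). Outside the AP-1 and Egr members 7 genes are filled on the higher side and 19 on the lower side, and the point farthest right is Rgs1, whose place depends on the prior count because it had no counts in the wild type.

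Over all 101 genes of these lists, 89 were tested, 7 rose and 19 fell (7.87% and 21.3% of those tested), beside 9.53% and 8.55% of all genes tested, a description with no test. The lists were not drawn independently of earlier results of these data. Crem, Elk3, Elk4, Nab2, Cd44 and Rps6ka1 share part of their span with another annotated gene. The calls of Atf4, Crem, Rps6ka5, Zfp36 and Tgfb1 were lost with the assumed variation of 0.4 alone.

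Markers of other cell types were also compared, and some of the sets differed between the groups. The 7 neutrophil markers summed to 1.85 and 3.96 CPM in Pax5-/- against 68.7 CPM in wild type, 7 of 7 were lower in both Pax5-/- samples, and S100a8, S100a9, Ngp, Camp and Elane had no counts there. The 5 markers of later B cells summed to 15.7 and 10.1 against 709 CPM, with 5 of 5 lower. Most of the wild-type sum was Igkc, at 8.32 and 4.40 against 612 CPM. Fcer2a (0, 0 and 2 counts) and Cr2 (2, 0 and 10 counts) were too low to be tested. The 9 stromal markers summed to 8.79 and 6.75 against 18.2 CPM, with 6 of 9 lower and Dcn at 0 in all samples. Pdgfrb was higher in both Pax5-/- samples, at 2.31 and 2.64 against 0.623 CPM. Cxcl12 held 9.35 CPM of the wild-type sum, and of the 4 stromal markers tested 0 were called. Of 5 dendritic cell markers, 4 were higher in both Pax5-/- samples, with sums of 575 and 218 against 50.3 CPM. The 7 monocyte and macrophage markers summed to 30.5 and 42.1 against 22.4 CPM, 2 higher and 2 lower in both samples. The 6 T cell, 4 NK cell and 4 erythroid markers each summed to 1.87 CPM or less in every sample. In bulk samples fewer cells of a type and less RNA per cell cannot be told apart. The part of these cells in the levels of Egr1, Egr3, Atf3 and Fosl2 was not tested.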

How the data were processed

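RNA-seq of 2 Pax5-/- samples and 1 wild-type sample was analysed from the deposited counts, whole numbers per Entrez gene that were not normalized, per the file headers. The submitters' processing notes name featureCounts and mm10; the aligner, the gene models and the handling of strand are not stated there or in the labels. Counts in the table of the whole series equalled those of each sample's own file in all 27179 genes. Symbols and positions came from RefSeq (GRCm38.p6), matching 93.0% of the Entrez numbers.

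Low counts were filtered by filterByExpr of edgeR 4.0.16 in R 4.3.3 (minimum count 10, minimum total 15). Libraries were scaled by TMM and tested with glmQLFit and glmQLFTest, with Benjamini-Hochberg adjustment over all genes and a threshold of 0.05. There was 1 residual degree of freedom per gene, with 3.15 prior degrees of freedom and a common biological coefficient of variation of 0.203. An SE is the size of the log2 fold change over the square root of F. CPM per kilobase used the deposited gene length. Ratios of low counts carry exact Clopper-Pearson 95% intervals. Alternatives used DESeq2 1.42.0, limma 3.58.1 (voom), other scalings, filters and dispersions; the code was checked on simulated data.

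The members and lists were chosen with earlier results of these data known. All members were named, and of each other list the up to 4 called genes that changed most among those whose CPM averaged 1 or more. Batf, Ier2, Dusp1 and Myc are marked in the text as chosen after their values were seen. Nab1, Egr4, Wt1, Srf and Rgs1 were also named outside this rule. No genes were ranked by likeness to the members, since 3 samples are too few.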

Additional observations from a re-analysis of the deposited data

How the results depend on the processing

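Egr1 was called lower under all 9 other settings, with log2 fold changes from -3.61 to -3.42. The number of members called was 1 in the reported fit and 3 with RLE scaling (Egr1, Fosl2, Junb), 3 with robust dispersion (the same genes), 3 in the likelihood ratio test (Egr1, Fosl2, Atf3), 2 without the filter on low counts (Egr1, Fosl2) and 2 with DESeq2 (Egr1, Jund). The cause was not tested. It was 1 with library size alone, a mean count of at least 20, limma-voom and an assumed biological coefficient of variation of 0.4. That assumed variation lowered the calls over all genes from 2130 to 1206 and over the other pathway lists from 26 to 15. No log2 fold change of a tested member changed sign. Leaving out a Pax5-/- sample leaves 1 sample against 1 and no test. The log2 ratio of CPM with a prior count of 2 then ranged from -4.13 to -2.78 for Egr1 and from 1.87 to 2.59 for Fosl2. No paired analysis was possible, since the wild type is 1 sample and the labels state no pairing. Depth limits Fos, Fosb, Egr2, Egr3 and Atf3, which had 5 to 22 counts over the 3 samples.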
